A study of Homo sapiens with 8 samples.

Results

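Transcripts of a small set of genes were higher on indisulam in both the parental and the indisulam-resistant form of Panc10.05, a long-established line of human pancreatic cancer cells. Of 60675 Ensembl genes in the count tables, 19006 were autosomal and protein-coding, and 10102 of these had a CPM (reads of a gene per 1000000 reads in genes) of at least 1 in all 4 indisulam libraries. These 10102 are called eligible genes here. A member was an eligible gene whose lower indisulam library held at least 1.3 times the CPM of its higher untreated library, separately in each of the 2 lines. RBM39 and HMOX1 were left out by the rule. The rule gave 65 members (0.643% of eligible genes). Its parental condition alone was met by 186 eligible genes (1.84%) and its resistant condition alone by 594 (5.88%).

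The 8 libraries formed 4 groups of 2, the parental and the resistant line each without and with indisulam. Values of a gene are given below for the 2 libraries of each group, in the order untreated parental, treated parental, untreated resistant, treated resistant. Indisulam is an aryl sulfonamide that joins RBM39, a splicing factor, to the ubiquitin ligase receptor DCAF15, which leads to degradation of RBM39. Parental cells were exposed to 2 µM of the drug for 18 h. The resistant line had been derived by culture on rising doses. Its treated group was kept on 2 µM without a break, and its untreated group had spent a week off the drug, so the length of exposure differs between the lines. Whether the resistant line is 1 clone is not given in the sources used here. The growth and treatment notes name A549, a lung cancer line, whereas titles and cell line field name Panc10.05. Of 10 markers of pancreatic ductal epithelium 8 reached 1 CPM, with a summed level of 6310 to 12700 CPM per library, and the 5 lung alveolar markers summed to at most 0.203 CPM with SFTPA1, SFTPB and NKX2-1 at 0. Acinar, endocrine, leukocyte and endothelial markers stayed under 1 CPM, and 1 of 6 fibroblast markers passed it. These are markers of cell types and not of single lines, so they do not settle which line name is right. Reads in genes numbered 65266253 to 108002436 per library. By the study's account replicates are technical, so p-values concern the spread between libraries only.

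A group of 14 members was assigned to cell division by known role. In G2 and mitosis cyclin B bound to CDK1 drives entry into division, Aurora A and its activator Bora switch on the mitotic kinases, centromere proteins and kinesins attach and align the chromosomes, and shugoshin protects their cohesion. Many genes of these phases are silent in G1 and are transcribed together late in the cycle. Their promoters often carry CCAAT boxes and a CHR element (TTTGAA). Whether each of the 14 members follows this pattern was not tested. Other members are known stress and immediate early genes, which are switched on within minutes to hours of a disturbance.

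Promoters of 4 cell division members are shown because the members share this pathway and because these letters are known from its promoters. The 4 were picked by hand and all hold CCAAT, so they do not show how common it is. Shares over all members with a promoter entry are given below. Each run holds the 250 bases before a start site of the gene in RefSeq (GRCh38.p14), 5′ to 3′ on the strand of the gene. Capitals mark CCAAT (or its reverse, ATTGG) and, in the first pair of promoters, TTTGAA. The positions are chr15:59104896-59105145 (plus strand) for CCNB2, chr2:26785806-26786055 (plus strand) for CENPA, chr5:69166900-69167149 (plus strand) for CCNB1 and chr1:211675622-211675871 (minus strand) for NEK2. The start used for CENPA lies inside the longer gene of GENCODE 44.
CCNB2: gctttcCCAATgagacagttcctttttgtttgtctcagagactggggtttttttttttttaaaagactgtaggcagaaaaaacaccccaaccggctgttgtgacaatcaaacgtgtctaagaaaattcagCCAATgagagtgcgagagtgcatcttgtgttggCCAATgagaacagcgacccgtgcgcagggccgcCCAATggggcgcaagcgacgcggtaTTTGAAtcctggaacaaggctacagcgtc
CENPA: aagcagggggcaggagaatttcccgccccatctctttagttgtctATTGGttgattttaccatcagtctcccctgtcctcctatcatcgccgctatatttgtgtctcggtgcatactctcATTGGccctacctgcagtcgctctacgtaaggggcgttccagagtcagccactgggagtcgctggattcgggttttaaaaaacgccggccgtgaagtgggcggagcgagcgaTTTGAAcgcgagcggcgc
CCNB1: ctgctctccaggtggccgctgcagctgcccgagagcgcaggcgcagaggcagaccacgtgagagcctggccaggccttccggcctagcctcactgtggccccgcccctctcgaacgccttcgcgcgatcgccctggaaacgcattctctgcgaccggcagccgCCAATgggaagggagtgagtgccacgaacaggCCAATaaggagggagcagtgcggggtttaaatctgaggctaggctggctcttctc
NEK2: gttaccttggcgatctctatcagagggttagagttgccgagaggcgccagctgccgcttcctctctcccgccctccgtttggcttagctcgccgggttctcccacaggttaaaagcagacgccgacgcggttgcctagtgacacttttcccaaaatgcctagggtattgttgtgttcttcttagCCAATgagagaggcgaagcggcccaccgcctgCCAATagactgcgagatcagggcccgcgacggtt
CCNB2 held 4 CCAAT matches and 1 TTTGAA match, CENPA 2 and 1, and CCNB1 and NEK2 held 2 CCAAT matches each.

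The promoter of FOS, which encodes a subunit of the AP-1 transcription factor, stands for the immediate early genes. It lies at chr14:75278578-75278827 (plus strand), and capitals mark TGACGT, the core of the CRE element, and TATAAA.
FOS: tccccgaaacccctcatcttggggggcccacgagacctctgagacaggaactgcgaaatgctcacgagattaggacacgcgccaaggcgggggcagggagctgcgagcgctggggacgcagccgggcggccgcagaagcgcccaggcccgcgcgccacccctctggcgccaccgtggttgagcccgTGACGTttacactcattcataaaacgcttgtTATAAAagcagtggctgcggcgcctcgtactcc
It held 1 match of each.

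Over all members, 54 matched the RefSeq promoter table, with 85 promoters of 250 bases before and 50 after a start site. CCAAT on either strand occurred in 43.5% of them, against 35.3% of 12239 promoters of eligible genes and 34.6% of 35116 promoters of all genes. TTTGAA, a motif added after the members were seen, occurred in 25.9%, against 10.2% and 15.2%. TATAAA occurred in 14.1%, against 5.8% and 11.5%. TGACGT was found in 12.9% (11% of eligible promoters), CACGTG in 8.24% (9.58%), CCGGAAG in 15.3% (18.7%), ATGGCG in 15.3% (17.5%) and TGACNNNGC in 14.1% (14.6%). Both strands were searched, TGACGT and TGACNNNGC can overlap, and a promoter can hold several motifs. A gene with several start sites entered with each, so the promoters are not independent, and these shares are a description.

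The rule fixes that every member was higher on the drug, so the sizes of the response are given as a description without a test. The median log2 fold change of the members, indisulam against untreated, was 0.63 in parental cells (quartiles 0.55 and 0.76, range 0.48 to 1.92) and 0.66 in resistant cells (quartiles 0.54 and 0.85, range 0.35 to 1.76). Over eligible genes the medians were 0.08 and -0.02. The fitted response was larger in parental cells for 32 members and larger in resistant cells for 33. Past 1 log2 unit lay 7 members in parental cells and 13 in resistant cells, and only LEPR, SLC28A3 and CEP295NL lay past it in both. All 65 passed the filter on low counts, and their counts ran from 43 to 62470 reads per library.

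**Figure D1:**
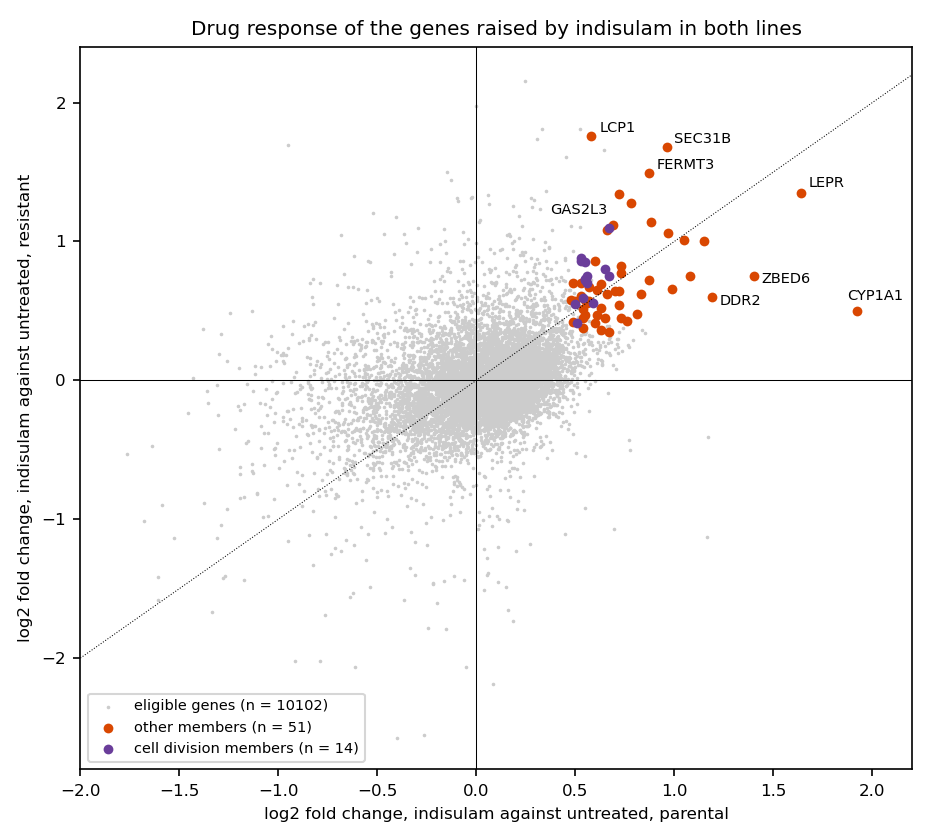
Log2 fold change of indisulam against untreated in parental cells (x axis) and in resistant cells (y axis) for 10102 eligible genes (grey), 14 cell division members (purple) and 51 other members (orange), with the dotted line at equal responses. The rule places all members in the upper right, where the cell division members lie between 0.50 and 0.67 on the x axis and CYP1A1 (1.92 and 0.50) and LCP1 (0.58 and 1.76) lie farthest to either side of the line.

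Close to the threshold of 1.3, the members just inside were ZNF585A with a smaller ratio of 1.30158, FBXO48 with 1.30316, CENPA with 1.30318 and TNRC6C with 1.304. The genes just outside were CXCL8 with 1.29971, TAMM41 with 1.29575, CENPF with 1.29462 and HMMR with 1.29321. CENPF and HMMR are themselves mitotic genes, for a kinetochore protein and a spindle protein.

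Cell division accounted for 14 members, grouped by known role after the members were seen: AURKA, BORA, CCNB1, CCNB2, CCSAP, CDCA2, CENPA, CEP44, CKAP2, DEPDC1, GAS2L3, KIF18A, NEK2 and SGO2. CCNB1 (ENSG00000134057, chromosome 5, 69167135 to 69178245, plus strand, GENCODE 44 on GRCh38) encodes cyclin B1. It stood at 543 and 538 CPM in the parental untreated libraries, 733 and 776 in treated parental, 346 and 319 in untreated resistant and 566 and 571 in treated resistant cells. The 4 groups did not overlap, the resistant untreated libraries were lowest, and resistant cells on the drug lay just above parental cells off it. The fitted drug response of CCNB1 was 0.55 (SE 0.037) in parental and 0.73 (SE 0.038) in resistant cells.

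CCNB2, for cyclin B2, stood at 137 and 137 CPM in untreated parental cells, 191 and 193 in treated parental, 72.2 and 67.9 in untreated resistant and 129 and 132 in treated resistant cells. AURKA (ENSG00000087586, chromosome 20, 56369389 to 56392337, minus strand), for the Aurora A kinase, stood at 271 and 268, 396 and 412, 167 and 155, and 285 and 295 CPM in the same order of groups. In both genes, as in CCNB1, the resistant untreated libraries were lowest and the parental indisulam libraries highest. Per kilobase of transcript CCNB1 (271 CPM per kb over all 8 libraries), AURKA (138) and CCNB2 (89.0) were the 3 most abundant members. BORA, for the activator of Aurora A, stood at 40.2 and 39.4, 54.6 and 55.7, 25.1 and 24.2, and 37.4 and 39.2 CPM, with 56.7% of the reads of its pair in DIS3 on the opposite strand.

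In genes of the centromere, cohesion and spindle the resistant untreated group again had the lowest mean, and the parental indisulam group had the highest in all but CCSAP (10.3 and 9.28 CPM against 10.2 and 11.1 in treated resistant cells). CENPA, for the histone H3 variant of centromeres, stood at 51.3 and 49.6 CPM in untreated parental cells, 66.8 and 71.8 in treated parental, 28.7 and 28.8 in untreated resistant and 55.1 and 54.3 in treated resistant cells, and SLC35F6 on the same strand held 60.0% of the reads of that pair. NEK2, for a centrosome kinase, stood at 68.5 and 65.4, 92.2 and 96.4, 37.7 and 38.5, and 64.8 and 67.5 CPM, so that its resistant indisulam libraries overlapped the parental untreated ones. SGO2 encodes shugoshin 2, which guards cohesion at the centromere, KIF18A a kinesin that limits chromosome movement on the spindle, and CDCA2 the protein that brings a phosphatase to chromosomes at mitotic exit.

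SGO2 stood at 74.2 and 73.9, 102 and 105, 46.3 and 44.7, and 76.9 and 78.0 CPM. KIF18A stood at 77.1 and 77.1, 107 and 114, 51.9 and 49.5, and 75 and 79.1 CPM. CKAP2, for a microtubule-associated protein, stood at 144 and 143, 215 and 222, 73.3 and 68.7, and 123 and 125 CPM. In CKAP2 the resistant indisulam libraries stayed below the parental untreated ones. GAS2L3, for a linker of actin and microtubules, had the largest resistant response of the group, 1.10 (SE 0.039) against 0.67 (SE 0.034) in parental cells, from 26.3 and 26.9 to 56.7 and 60.8 CPM.

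**Figure D2:**
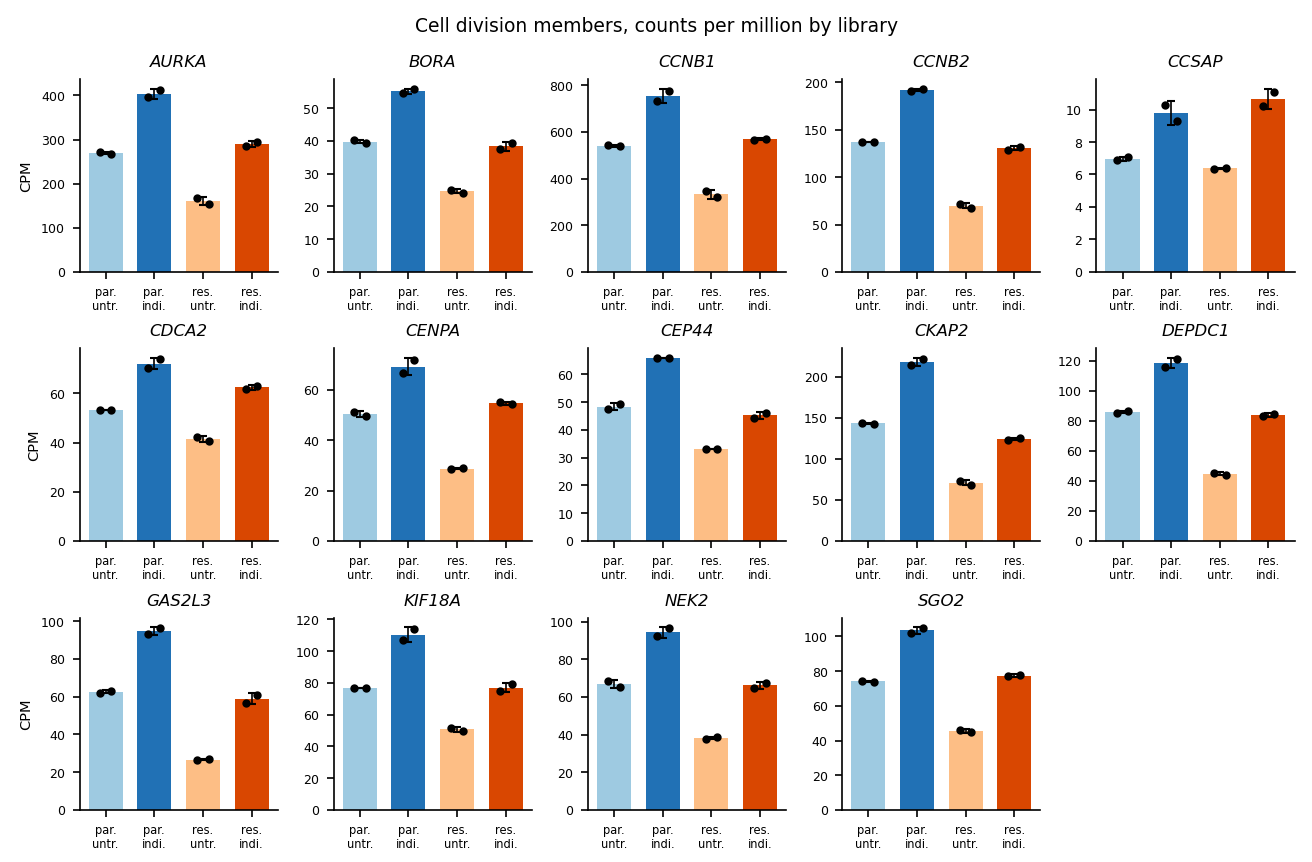
CPM of the 14 cell division members by line and treatment (bars, mean of 2 libraries; points, each library; error bars, SD). In 13 of the 14 panels the resistant untreated bar is clearly lowest, and only CCSAP shows nearly level untreated bars.

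Between the lines off the drug, a contrast on which the rule sets no condition, 13 of the 14 were called lower in resistant cells and none higher. The rule does use the same untreated libraries, each against its own treated ones. Calls are from edgeR's quasi-likelihood test with Benjamini-Hochberg adjustment over 16661 genes, at an adjusted p under 0.05, here and below. The share called lower was 29.9% of all tested and 33.8% of eligible genes. The log2 fold change ran from -1.21 in GAS2L3 (SE 0.039, adjusted p 2.6e-18) to -0.10 in CCSAP (SE 0.07, adjusted p 0.21), with a median of -0.69. On the drug again 13 of 14 were called lower in resistant cells, with a median of -0.59, where the share was 34.9% of all tested and 48.2% of eligible genes. In 6 of the 14 both resistant indisulam libraries lay above both parental untreated ones, in 6 below, and in 2 the groups overlapped (above in 44% and below in 44.6% of eligible genes). More cells in late cycle phases and more transcript per cell cannot be told apart in bulk RNA.

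A list of 40 mitosis genes, all of them tested, held 6 members (AURKA, CCNB1, CCNB2, CENPA, KIF18A and NEK2). Among its 34 genes that are no members, 24 were called higher and 3 lower on the drug in parental cells (median 0.23), and 31 higher and none lower in resistant cells (median 0.45). The share called higher was 31.6% of all tested and 45.9% of eligible genes in parental cells, and 24.9% and 27.4% in resistant cells. Of these 34, 23 were called higher in both lines, where 16.8% of eligible and 11.9% of all tested genes were. Off the drug all 34 were called lower in the resistant line, with a median of -0.52 (29.9% of all tested and 33.8% of eligible genes were called lower). Called lower on the drug in parental cells were AURKB, ECT2 and TOP2A, at -0.18, -0.13 and -0.09, which encode the Aurora B kinase, a cytokinesis regulator and a topoisomerase.

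DNA replication genes, which act earlier in the cycle, held no member. Of 36 tested, 6 were called higher and 18 lower on the drug in parental cells, and none higher and 31 lower in resistant cells, with medians of -0.08 and -0.33. Off the drug 27 of the 36 were called higher and 4 lower in resistant cells (median 0.22), where 30.3% of all tested and 36.5% of eligible genes were called higher. The share called lower on the drug was 26.6% of all tested and 25.4% of eligible genes in parental cells, and 25.8% and 35.3% in resistant cells.

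**Figure D3:**
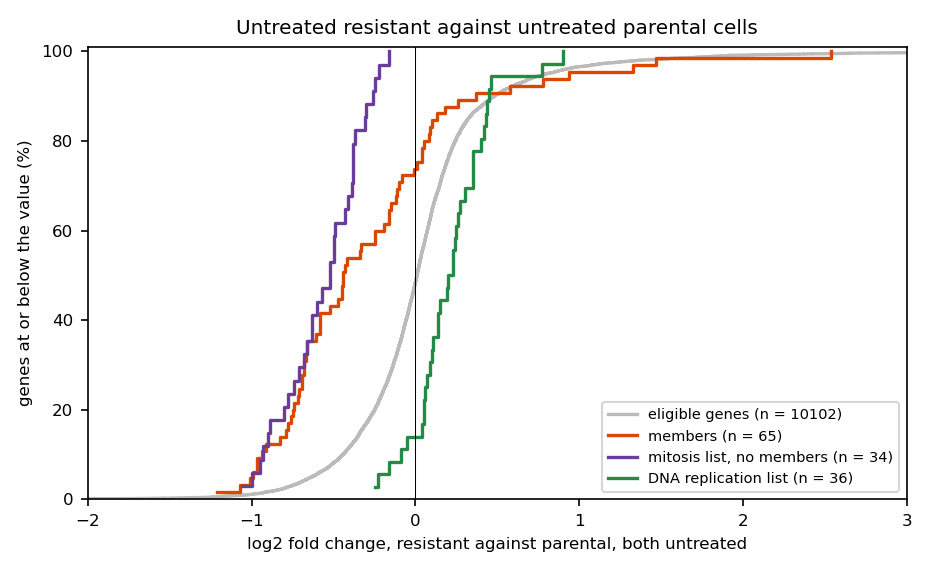
Cumulative share of genes (y axis, percent) at or below each log2 fold change of untreated resistant against untreated parental cells (x axis, drawn from -2 to 3), for eligible genes (grey), members (orange), mitosis list genes that are no members (purple) and DNA replication genes (green). The members and the mitosis genes lie left of the eligible genes (medians -0.44, -0.52 and 0.01) and the replication genes lie right of them (0.22).

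FAM72A, FAM72B and FAM72D, near-identical paralogs on chromosome 1 whose transcripts are known from proliferating cells, were all members. FAM72B stood at 19.6 and 19.5 CPM in untreated parental cells, 29.8 and 31.8 in treated parental, 11.4 and 12.3 in untreated resistant and 18.5 and 19.5 in treated resistant cells. All 3 were called lower in resistant cells off the drug (-0.33, -0.69 and -0.61 in the order named). In that comparison 33.8% of eligible and 29.9% of all tested genes were called lower. Reads can be divided among such near-identical copies in ways the counts do not show, so the 3 calls may not be separate observations. FAM72A and FAM72B also overlap SRGAP2 and SRGAP2C on the opposite strand, with 90.8% and 39.9% of the paired reads in the partner.

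Stress and growth control gave 4 members. FOS (ENSG00000170345, chromosome 14, 75278826 to 75282230, plus strand) stood at 10.8 and 10.4 CPM in untreated parental cells, 14.1 and 14.4 in treated parental, 10.9 and 10.4 in untreated resistant and 18.3 and 17.6 in treated resistant cells. The untreated groups of FOS overlapped, and the drug response was 0.49 (SE 0.05) in parental and 0.70 (SE 0.052) in resistant cells. NR4A3, an orphan nuclear receptor and another early response gene, stood at 1.35 and 1.26, 2.48 and 2.12, 0.616 and 0.659, and 1.40 and 1.49 CPM. Its resistant untreated libraries held 46 and 43 reads.

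PPP1R15A (GADD34), which directs a phosphatase to eIF2α and so ends the translational block of the stress response, stood at 170 and 171 CPM in untreated parental cells, 230 and 224 in treated parental, 124 and 125 in untreated resistant and 195 and 191 in treated resistant cells. CCNG1, for the p53 target cyclin G1, stood at 115 and 115, 162 and 164, 74.2 and 68.9, and 106 and 112 CPM. Off the drug PPP1R15A and CCNG1 were lower in resistant cells by fitted log2 fold changes of -0.42 (SE 0.028, adjusted p 3e-12) and -0.66 (SE 0.034, adjusted p 5.8e-14). PPP1R15A, CCNG1 and FOS belong to the lists of ATF4 targets, p53 targets and immediate early genes. Of these lists 4 of 36, 6 of 29 and 7 of 31 tested genes, in that order, were called higher on the drug in both lines. Among all tested genes 11.9% were, and among eligible genes 16.8%. Of ATF4 targets 16 were called higher and 9 lower in parental cells, and 9 higher and 19 lower in resistant cells. For p53 targets these counts were 12 and 8, and 13 and 9, and for immediate early genes 12 and 6, and 21 and 3. Of eligible genes 45.9% were called higher and 25.4% lower in parental cells, and 27.4% and 35.3% in resistant cells. Of all tested genes the shares were 31.6% and 26.6%, and 24.9% and 25.8%.

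Transcription, chromatin and RNA gave 16 members of varied function. SRRM1, a coactivator of splicing with SR repeats, stood at 126 and 130 CPM in untreated parental cells, 185 and 170 in treated parental, 115 and 117 in untreated resistant and 157 and 153 in treated resistant cells. It was the only member among 23 tested SR splicing factors, of which 10 were called higher in both lines (16.8% of eligible and 11.9% of all tested genes). CPEB4, a regulator of poly(A) tails and translation, stood at 10.2 and 10.5, 14.9 and 15.1, 14.8 and 15.6, and 28.1 and 28.9 CPM. The resistant untreated libraries of CPEB4 reached the level of parental cells on the drug, and off the drug the gene was higher in resistant cells by 0.58 (SE 0.05, adjusted p 4e-10).

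The zinc finger genes ZNF165, ZNF585A and ZNF850 were members, out of 423 tested ZNF genes, 75 of which were called higher in both lines. This is near the share of eligible genes called so, 16.8% (11.9% of all tested genes). ZNF850 stood at 6.80 and 6.87, 11.2 and 11.2, 6.08 and 5.90, and 15.2 and 15 CPM, and it was called lower in resistant cells off the drug (-0.16, adjusted p 0.03) and higher on it (0.34, adjusted p 3.3e-06). The first of these calls was lost without either library of either untreated group (adjusted p 0.055 to 0.16). ZNF850 and ZNF585A overlap ZNF567 and ZNF420 on the opposite strand, with 52.7% and 57.3% of the paired reads in the partner. ZBED6, a transcription factor gene of transposon origin, stood at 0.944 and 0.899, 2.23 and 2.42, 0.843 and 0.965, and 1.44 and 1.66 CPM. In the annotation used for positions its entry spans 58502 bases, with 17 exons in the canonical transcript. It overlaps ZC3H11A on the same strand, which held 14.1% of the reads of that pair. Reads that matched both genes were left out by the counting. Whether the reads and drug responses given for ZBED6 belong to ZBED6 or to ZC3H11A was not tested.

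SNAPC3 encodes a subunit of the complex that starts snRNA transcription, and TNRC6C a scaffold of miRNA silencing. In this role SNAPC3, TNRC6C, MDFIC, ZC3H6 and THAP8 were called lower in resistant cells both off and on the drug. So were ZNF165, ZNF585A, H2BC15, H3C6 and SRRM1. The fitted difference off the drug ran from -0.83 in ZNF165 to -0.12 in SRRM1. Of eligible genes 33.8% were called lower off the drug and 48.2% on it (29.9% and 34.9% of all tested genes). The share called lower both times was not counted. Without parental untreated replicate 2 the call of SRRM1 off the drug was lost. Without resistant indisulam replicate 1 the call of H2BC15 on the drug was lost. Partners on the opposite strand held 96.4% of the paired reads for THAP8 (WDR62), 68.1% for SNAPC3 (PSIP1), 64.1% for TNRC6C (TMC6) and 48.4% for SUPT3H (RUNX2). SUPT3H (a subunit of the SAGA coactivator) and KMT5B (a histone methyltransferase) differed by 0.08 and 0.10 off the drug, the second of these called. That call of KMT5B was lost without either parental untreated library or resistant untreated replicate 1 (adjusted p 0.066 to 0.12). H2BC21, H2BC15 and H3C6 are replication-dependent histone genes, whose transcripts mostly lack a poly(A) tail, and the libraries were made from polyadenylated RNA. H3C6 stood at 3.18 and 3.31, 5.18 and 5.09, 2.26 and 2.45, and 3.88 and 4.38 CPM.

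Receptor, matrix and cytoskeleton genes had some of the largest responses. LEPR (ENSG00000116678, chromosome 1, 65420652 to 65641559, plus strand), for the leptin receptor, stood at 2.99 and 3.19 CPM in untreated parental cells, 9.49 and 8.86 in treated parental, 2.74 and 2.87 in untreated resistant and 7.21 and 7.57 in treated resistant cells. Its smaller response (1.35, SE 0.084) was the largest smaller response among the members. LEPROT, which overlaps LEPR on the same strand, held 91.2% of the reads of the pair, and reads that matched both genes were left out by the counting. DDR2, a collagen receptor kinase, stood at 1.04 and 0.984, 2.27 and 2.14, 0.910 and 0.827, and 1.34 and 1.38 CPM.

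LCP1 (L-plastin, chromosome 13, 46125920 to 46211871, minus strand), an actin bundler best known from leukocytes, stood at 2.16 and 2.15 CPM in untreated parental cells, 3.16 and 2.99 in treated parental, 3.91 and 4.21 in untreated resistant and 14.0 and 14.3 in treated resistant cells. No groups of LCP1 overlapped, and the resistant line was higher on both treatments, as in no cell division member. The 5 leukocyte markers summed to at most 0.456 CPM in any library, with PTPRC and CD3E among those at 0. FERMT3, an integrin activator of blood cells (kindlin-3), stood at 1.06 and 1.08, 1.91 and 1.85, 0.683 and 0.873, and 2.14 and 2.33 CPM, but TRPT1 on the opposite strand held 94.3% of the reads of that pair. LAMA2, for a laminin chain, had responses of 0.66 (SE 0.15) and 1.08 (SE 0.16).

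**Figure D4:**
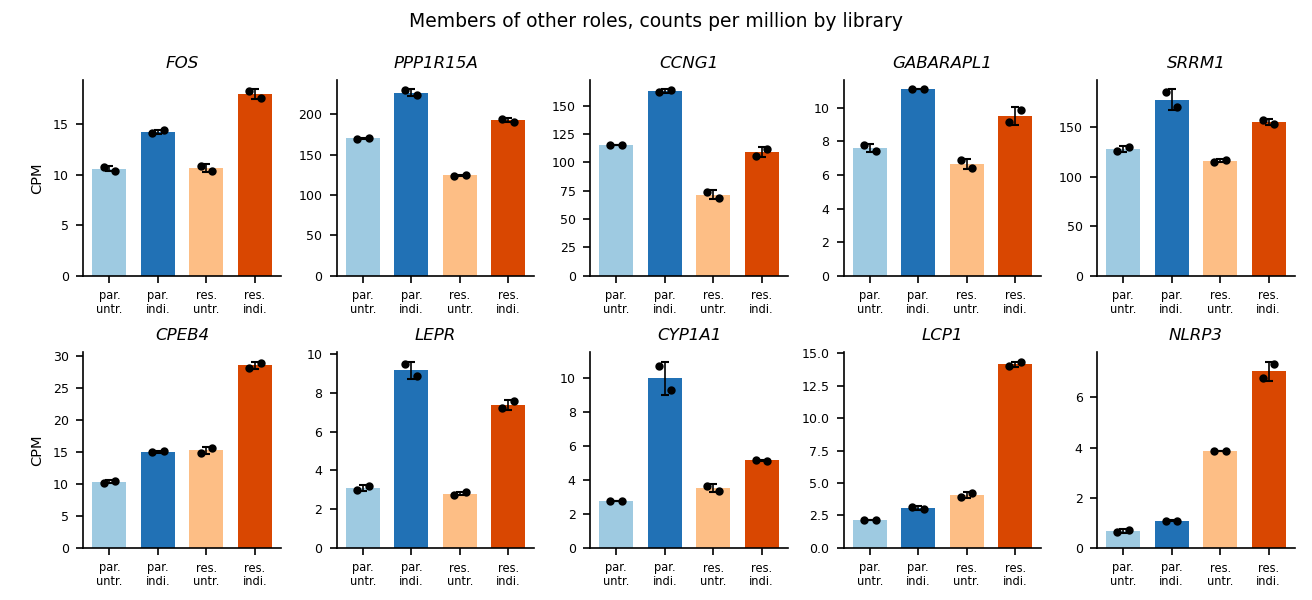
CPM of 10 members of other roles in the 4 groups (bars, mean of 2 libraries; points, each library; error bars, SD). FOS and LEPR have untreated bars that are close between the lines, CCNG1 is lowest in resistant untreated and highest in parental indisulam cells, CYP1A1 is highest in parental indisulam cells (10.7 and 9.31) and CPEB4, LCP1 and NLRP3 are highest in resistant indisulam cells.

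Metabolism, transport and lysosome held 9 members. CYP1A1 (chromosome 15, 74719542 to 74725536, minus strand), the xenobiotic-metabolizing enzyme induced through the aryl hydrocarbon receptor, stood at 2.75 and 2.78 CPM in untreated parental cells, 10.7 and 9.31 in treated parental, 3.68 and 3.34 in untreated resistant and 5.17 and 5.15 in treated resistant cells. Its parental response of 1.92 (SE 0.081) was the largest of any member in either line. CAT, for catalase, stood at 21.3 and 21.3, 33.8 and 33.1, 22.4 and 21, and 33.5 and 32.0 CPM, and its lines overlapped off the drug.

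CHKA, for the choline kinase that starts phosphatidylcholine synthesis, stood at 68.1 and 68.7, 104 and 103, 71.5 and 71.4, and 93.8 and 94.3 CPM. SLC28A3, a nucleoside transporter that also carries nucleoside drugs, stood at 2.01 and 1.76, 3.76 and 3.70, 1.49 and 1.21, and 2.80 and 2.86 CPM. Its responses were close to each other, 1.05 (SE 0.11) in parental and 1.01 (SE 0.13) in resistant cells. CYGB, for cytoglobin, and PRCD overlap on opposite strands of chromosome 17 and hold 64.0% and 36.0% of the reads of the pair, so their changes cannot be separated without the strand setting. ARG2 and ACYP2 share their place with VTI1B and PSME4, which held 97.6% and 97.2% of the reads.

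NLRP3 (chromosome 1, 247416156 to 247449108, plus strand), the sensor of the inflammasome, stood at 0.630 and 0.719 CPM in untreated parental cells (68 and 76 reads), 1.09 and 1.06 in treated parental, 3.87 and 3.85 in untreated resistant and 6.76 and 7.31 in treated resistant cells. Its line difference off the drug, 2.54 (SE 0.12, adjusted p 6.9e-15), was the largest of the members, while its drug responses were 0.73 (SE 0.15) and 0.82 (SE 0.089). ALPK1, a kinase that senses a bacterial sugar, went the other way between lines, with 24.6 and 24.3, 40.2 and 41.6, 12.2 and 12.2, and 17.4 and 17.8 CPM. TIFA, the partner of ALPK1 in that pathway, overlaps it on the opposite strand and held 59.5% of the reads of the pair.

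Membrane traffic and autophagy gave GABARAPL1, SEC31B, WASHC2C and PPP1R21. GABARAPL1, of the family that decorates autophagosomes, stood at 7.76 and 7.44, 11.1 and 11.1, 6.88 and 6.44, and 9.15 and 9.87 CPM, and was the only member among 35 tested autophagy and lysosome genes. SEC31B, for a coat protein of vesicles leaving the endoplasmic reticulum, stood at 3.15 and 2.90, 6.13 and 5.08, 1.16 and 1.69, and 5.03 and 4.41 CPM, with replicates farther apart than in most members. Of the 8 members with other or unknown roles, PRCD and TCAF2 were called higher and STK17A, QRICH2 and NAV2 lower in resistant cells off the drug. Of eligible genes 36.5% were called higher and 33.8% lower there. CEP295NL had responses of 1.15 and 1.00, but TIMP2 on the same strand held 99.4% of the reads of that pair. ARL14EPL had responses of 0.69 (SE 0.16) and 1.12 (SE 0.15), and a partner on the opposite strand held 70.7% of its paired reads. COA1, opposite STK17A, held 74.0%.

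**Figure D5:**
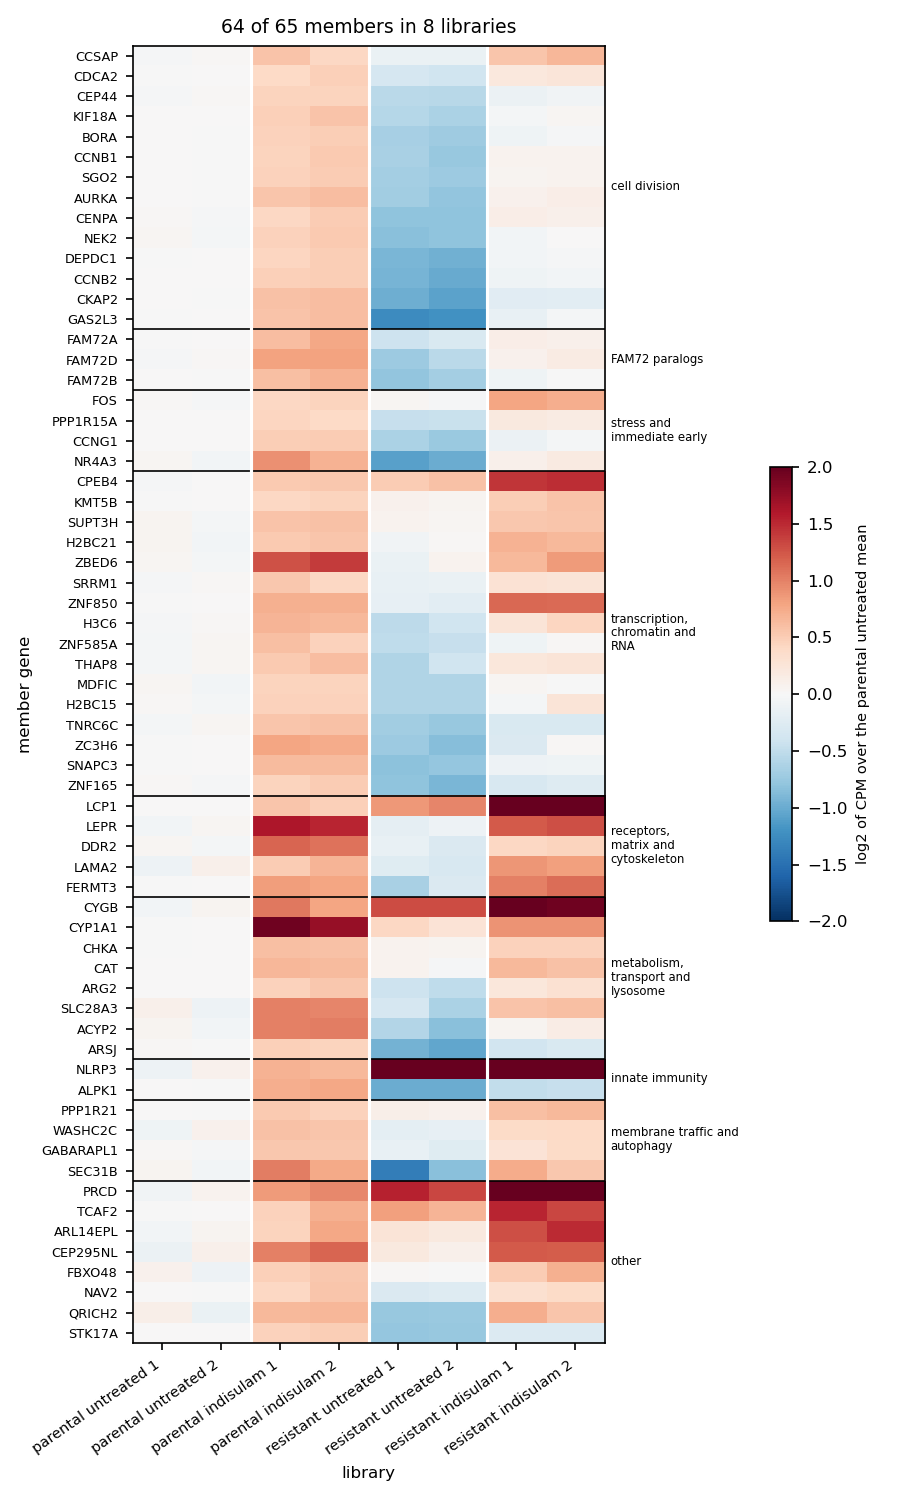
Log2 of the CPM over the parental untreated mean for 64 of the 65 members (rows, by role and then by line difference off the drug) in the 8 libraries (columns), with values past 2 drawn in the end colour. Parental indisulam columns are red throughout by the rule, and most resistant untreated rows are blue. NLRP3, PRCD, CYGB, LCP1, TCAF2 and CPEB4 are among the rows that are red in all 4 resistant libraries. Others, such as CYP1A1 and ARL14EPL, are so with fainter colour off the drug.

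Over all members, 43 (66.2%) were called lower and 10 (15.4%) higher in resistant than in parental untreated cells, where 33.8% of eligible genes were lower and 36.5% higher (29.9% and 30.3% of all tested). The median log2 fold change of the members was -0.44, against 0.01 for eligible genes. Besides NLRP3 the highest were PRCD (1.47), CYGB (1.33), LCP1 (0.94) and TCAF2 (0.78), and besides GAS2L3 the lowest were SEC31B (-1.07), NR4A3 (-1.01), CKAP2 (-0.99) and ALPK1 (-0.97). In 47 members both parental untreated libraries lay above both resistant ones and in 11 below (45.9% and 40.2% of eligible genes). With 2 libraries against 2 an exact permutation test of a single gene cannot go below 0.333.

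On the drug 47 members (72.3%) were called lower and 9 (13.8%) higher in the resistant line, where 48.2% of eligible genes were lower and 31.9% higher (34.9% and 34.6% of all tested). The median was -0.41, against -0.08 for eligible genes. In 46 members both treated parental libraries lay above both treated resistant ones and in 15 below (43.4% and 44.9% of eligible genes). In 40 members the call was lower both off and on the drug and in 6 it was higher both times (CPEB4, CYGB, LCP1, NLRP3, PRCD and TCAF2). CHKA and CYP1A1 were called higher off and lower on the drug, and ZNF850 the reverse. The higher call of CHKA was lost without either parental untreated library (adjusted p 0.052 and 0.096). CCSAP, CEP295NL, FBXO48, H2BC21 and LAMA2 were called in neither. Shares of eligible genes with the same pairs of calls were not counted, so these joint counts are only a description. The 2 line comparisons use different libraries from each other, and both use libraries of the drug comparisons.

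Set against untreated parental cells, both resistant indisulam libraries were higher in 44 members, both were lower in 13 and the groups overlapped in 8. Of eligible genes 44% were higher and 44.6% lower by the same count. All 5 receptor, matrix and cytoskeleton members and all 4 of membrane traffic and autophagy were among the 44. This is a description, since the rule used the resistant response.

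The drug response differed between the lines in 28 members, 16 with the larger response in resistant cells (24.6%, against 20.6% of eligible and 22.7% of all tested genes) and 12 with the larger in parental cells (18.5%, against 41.5% and 27.5%). The rule treats the lines alike but bounds both responses from below, which limits how far they can differ. With library totals in place of TMM scaling the split was 23 to 5, and that scaling moved the median difference of all tested genes by 0.115 log2 units. Resistant minus parental, the difference was 1.18 in LCP1 (SE 0.12, adjusted p 2.9e-08), 0.73 in SEC31B, 0.62 in QRICH2 and FERMT3 and 0.50 in ZNF850. At the other end it was -1.42 in CYP1A1 (SE 0.12, adjusted p 4.8e-09), -0.65 in ZBED6, -0.59 in DDR2 and -0.33 in FAM72A and ALPK1. The calls of FERMT3, ZBED6, DDR2 and FAM72A were each lost in 2 to 4 of the 8 fits without one library (adjusted p up to 0.14), and without parental indisulam replicate 1 the larger response in parental cells was called in 7 members. Of the 14 cell division members 8 were called, all with the larger response in resistant cells, from 0.15 in AURKA to 0.43 in GAS2L3, and 6 were not called (-0.11 to 0.14). The call of AURKA was lost without parental untreated replicate 1 or resistant untreated replicate 2 (adjusted p 0.051 and 0.059).

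The other gene lists held 1 member (GABARAPL1) or none. Counts of their genes called higher in both lines are to be read against 11.9% of all tested and 16.8% of eligible genes. The genes called higher on the drug in both lines were 3 of 13 tested splicing kinases, 10 of 27 hnRNP proteins, 7 of 25 U2 snRNP and U2AF proteins, 2 of 19 nonsense-mediated decay factors and 6 of 39 RBM genes. They were 5 of 27 NRF2 targets, 4 of 21 heat shock proteins, 2 of 24 endoplasmic reticulum stress genes, 6 of 24 cholesterol synthesis genes and 11 of 35 autophagy and lysosome genes. They were also 4 of 21 cyclin-dependent kinase inhibitors and G1 genes, 3 of 15 BCL-2 family genes, 3 of 10 genes of the RBM39 degradation complex and none of 33 interferon-stimulated genes. Of the interferon-stimulated genes 20 were called lower in parental and 32 in resistant cells, as were 26.6% and 25.8% of all tested genes.

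In structure the members were close to eligible genes in length and exon number. The median gene length was 36800 bases against 34100, that of the canonical transcript 3490 against 3430 bases, and the median exon number 9 in both. GC content of the canonical transcript was lower, with a median of 43.6% against 47.6%. A partner on the opposite strand that held at least 20% of the reads of the pair was found for 18 members (27.7%, against 18.0% of eligible genes). The members lay on 17 autosomes, 12 of them on chromosome 1. Besides CYGB and PRCD, which overlap, the closest members were CHKA and KMT5B on chromosome 11, 33.4 kb apart.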

How the data were processed

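RNA sequencing of 8 Panc10.05 libraries was analysed. The authors deposited raw read counts per Ensembl gene, made from stranded polyA+ libraries trimmed with SeqPurge and aligned with HISAT2 2.2.1 to GRCh38. Picard and HTSeq are named in the processing notes without a role. Duplicates and reads matching several genes were left out of the counts. The strand setting and annotation release of the counting are not given in the sources used here, so genes that overlap others are uncertain. Groups were taken from sample titles, and the labels name no batch.

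Symbols, biotypes and positions came from GENCODE 44 (60419 of 60675 IDs matched). CPM used the total over Ensembl genes, without the 9 unassigned lines of each table. The members and gene lists were chosen with earlier results of these data known, and roles and TTTGAA after the members were seen. Fold changes are from edgeR 4.0.16 (R 4.3.3; filterByExpr, TMM, robust quasi-likelihood fit over 4 groups, 16661 genes tested, Benjamini-Hochberg adjusted p under 0.05), checked on simulated counts. Genes were named by rule: the 15 largest smaller responses, the 6 highest CPM per kb, the 5 highest and 5 lowest in the line and response differences, members of 21 gene lists and families, and the 4 nearest either side of 1.3. Other members were named after their values were seen. Values of 1 member and of 1 marker gene are not reported here.

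Alternatives were DESeq2 1.42.0 (size factors and Wald test), library totals, other filters and thresholds, glmTreat against 0.5 log2 units, only the groups compared, a replicate block, and each library left out. Figures used matplotlib 3.10.9. Deviations of same-numbered libraries from their group means correlated between -0.058 and 0.0272, so replicate numbers were not taken as pairs.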

Additional observations from a re-analysis of the deposited data

Results flagged for a closer look

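The drug response of 28 members differed between the lines by the interaction term of edgeR's quasi-likelihood fit (Benjamini-Hochberg adjusted p under 0.05). Of the members 24.6% were called with the larger response in resistant and 18.5% in parental cells. Of eligible genes 20.6% and 41.5% were called so, and of all tested genes 22.7% and 27.5%. The rule bounds both responses from below, which limits how far they can differ. Values are the log2 response in resistant minus that in parental cells. Among cell division members it was 0.43 in GAS2L3, 0.35 in CENPA, 0.32 in DEPDC1, 0.30 in CCNB2, 0.19 in NEK2, 0.18 in CCNB1, 0.17 in SGO2 and 0.15 in AURKA. Other members with the larger response in resistant cells were LCP1 (1.18), SEC31B (0.73), QRICH2 (0.62), FERMT3 (0.62), ZNF850 (0.50), CPEB4 (0.26), FOS (0.21) and PPP1R15A (0.10).

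The response was larger in parental cells for 12 members, among them CYP1A1 (-1.42), ZBED6 (-0.65), DDR2 (-0.59), FAM72A (-0.33), ALPK1 (-0.33), CHKA (-0.32), LEPR (-0.28), TNRC6C (-0.27), SUPT3H (-0.20), CAT (-0.18) and SRRM1 (-0.16). Exposure lasted 18 h in parental cells and was continuous in resistant cells, so line and length of exposure cannot be told apart. In 11 of the 28 the call was lost when single libraries were left out. It was lost in 7 of 8 such fits for LEPR (adjusted p up to 0.17), in 6 for SUPT3H (0.16), in 4 for CAT (0.21), PPP1R15A (0.15) and DDR2 (0.11), in 3 for FAM72A (0.14), SRRM1 (0.14) and FOS (0.11), and in 2 for FERMT3 (0.10), ZBED6 (0.063) and AURKA (0.059). Groups of 2 libraries were too small for a search for outlying libraries.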

How the results depend on the processing

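No call of a member reversed under any alternative run. Of 53 calls off the drug 43 held under every alternative other than the stricter thresholds, of 56 on the drug 51, and of 28 in the response difference 16. The rule gave 209 genes at a fold of 1.2, 14 at 1.5, 43 at a minimum of 5 CPM, and 66 to 88 without one library. On TMM-scaled CPM it gave 80 genes and with DESeq2 size factors 85, each sharing 56 with the 65. Against 0.5 log2 units (glmTreat) 21 members were lower, 5 higher and 26 in all called off the drug, 25 lower and 31 in all on the drug, and 1 lower, 1 higher and 2 in all in the response difference. Members with the smaller response in resistant cells (12) fell to 7 by the DESeq2 Wald test, 5 with library totals, 7 with a filter at a mean of 1 CPM and 6 at an adjusted p under 0.01, where 17 were called in all. Leaving out one library gave 37 to 43 lower, 7 to 10 higher and 44 to 53 in all off the drug, 44 to 47 lower, 9 higher and 53 to 56 in all on the drug, and 7 to 11 lower, 13 to 18 higher and 22 to 28 in all in the response difference, where parental indisulam replicate 1 gave the 7. The median responses were 0.57 (parental) and 0.71 (resistant) with library totals, and 0.59 to 0.64 and 0.63 to 0.68 without one library. The replicate block gave 53, 56 and 27 calls and lost 1 of the 137 calls in the 3 comparisons, and same-numbered libraries share only a number. The cause of these changes was not tested.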
